A study of Homo sapiens with 16 samples.

Results

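Polysomal RNA was compared with cytoplasmic RNA in H69M cells that carry a control shRNA. The comparison rests on 4 of the 16 libraries of the series, 2 of polysomal and 2 of cytoplasmic RNA, and was applied to all 23100 genes that passed a low-count filter. H69M is labelled a small cell lung cancer (SCLC) line of wild-type genotype, grown with normal treatment in RPMI medium with 10% fetal bovine serum. All 4 libraries carry shNTC, taken here as the control shRNA. Which sucrose fractions were pooled is not given in the sources used here. The other groups compared here are H69M with sheIF6, an shRNA against EIF6, and the line H69 with shNTC, each with 2 libraries a fraction. H69 with sheIF6, also with 2 libraries a fraction, enters only the joint fit and the choice of genes higher in H69. Lysates were made in a hypotonic, detergent-containing buffer with cycloheximide, which holds ribosomes on the message, and polysomal RNA was taken from sucrose fractions. Replicates are numbered, but no label says that each came from its own culture. Spread was estimated jointly over all 16 libraries in 8 groups, not over the 4 compared. A p-value here therefore reflects the spread of those 16 libraries alone, part or all of which may be technical.

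A message that is being translated carries several ribosomes at once, and such polysomes sink deeper into a sucrose gradient than single ribosomes, ribosomal subunits or free messages. Polysomal over cytoplasmic level is therefore read as a measure of how much of an RNA sits on polysomes. It is relative to all other RNA of the library, and it does not say how many ribosomes a message carries. Mitochondrial messages are translated by mitochondrial ribosomes, and nuclear noncoding RNAs are not translated by cytosolic ribosomes, so both serve as internal references for RNA that should not be on cytosolic polysomes.

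The 4 libraries held 36005326 to 47197218 counts each. The labelled cell type was checked on markers. The 10 neuroendocrine markers, which define classical SCLC, summed to 187 and 228 CPM (counts scaled by the TMM-normalized library size) in the cytoplasmic libraries and to 237 and 639 CPM in the polysomal ones, against 2044 to 4160 CPM in H69. NCAM1, an adhesion molecule near its H69 level of 236 CPM, made up most of the cytoplasmic sums, at 168 and 172 CPM. The 10 non-neuroendocrine markers summed to 3622 to 5347 CPM in H69M, with VIM (vimentin) at 1905 and 2797 CPM in the cytoplasmic libraries, so the SCLC label stood beside a low level of the neuroendocrine markers. In bulk RNA, fewer cells that express a gene and less RNA per cell cannot be told apart. The 8 fibroblast markers summed to 10171 to 37186 CPM in H69M, with none at 0, against 153 to 516 CPM in H69. The collagen genes COL1A1 and COL1A2 made up most of the H69M sums. DCN and THY1 were near the floor in H69M, at no more than 0.681 and 0.73 CPM, and THY1 stood at 3.33 CPM in H69 cytoplasmic RNA. Of the 7 immune and blood markers, 4 were at 0 in each of the 4 H69M shNTC libraries, among them CD3E, LYZ and HBB, and the sum was at most 0.738 CPM.

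One polysomal library stood apart. In 146 genes that were at least 50 times higher in H69 than in H69M, chosen on sheIF6 cytoplasmic libraries that this comparison does not use, the median level was 0.387% and 2.12% of the H69 level in the cytoplasmic libraries, 0.549% in polysomal replicate 1 and 6.56% in polysomal replicate 2. INSM1, a neuroendocrine transcription factor, stood at 1.15 and 28.4 CPM in the cytoplasmic libraries and at 6.38 and 256 CPM in the polysomal ones. The libraries numbered 2 were thus higher for such genes in both fractions. The median log2 difference of the neuroendocrine markers was 2.09 with all 4 libraries, 4.07 without cytoplasmic replicate 2 and 0.10 without polysomal replicate 2, and INSM1 changed from 3.15 to -1.21. Of these markers 1 was called higher, SYP, and 5 with the replicate block, INSM1 among them (adjusted p = 0.34 without and 0.00568 with the block). The part of this signal in other results was not tested. Counts of called genes are therefore also given without that library for most groups. The counts over all genes are given too without the 6329 tested genes that were over 2 times higher in H69.

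**Figure D1:**
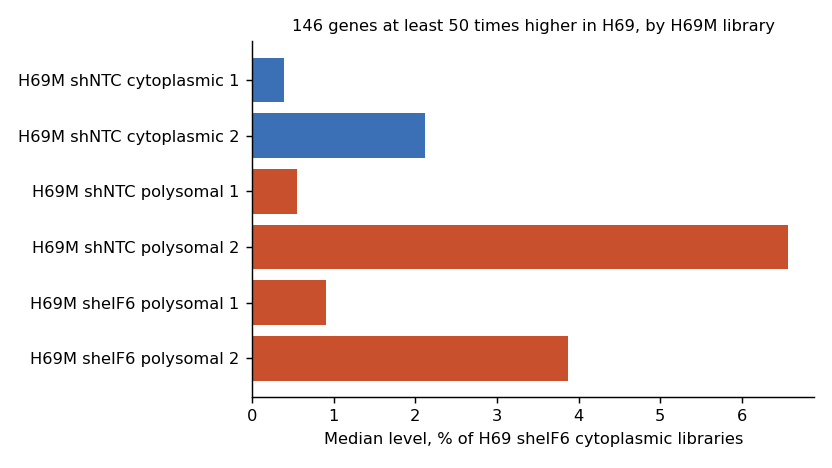
Median level of 146 genes at least 50 times higher in H69 (x axis, percent of their level in the H69 sheIF6 cytoplasmic libraries) in the H69M libraries not used to choose them (y axis). Blue bars are cytoplasmic and orange bars polysomal libraries. Polysomal replicate 2 of shNTC reaches 6.56%, and both libraries numbered 1 of shNTC lie under 1%.

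Polysomal and cytoplasmic RNA differed in both directions. Of the 23100 genes, 498 (2.16%) were higher and 587 (2.54%) lower in polysomal RNA at an adjusted p under 0.05 in edgeR's quasi-likelihood test. The median log2 difference was 1.09 in the higher set and -1.41 in the lower set. In all 1085 of these genes (4.7%), chosen by a test on the same values, the 2 polysomal values lay on one side of the 2 cytoplasmic values. Both same-numbered pairs then necessarily move the same way, as they did in 16290 of all 23100 genes. Values of the 2 fractions also did not overlap in 45.1% of all genes tested. With the replicate number as a block within each line, 1405 genes (6.08%) were higher and 1159 (5.02%) lower. Scaling by total library size, which moved the median of all genes to -0.25, gave 225 and 1074, and DESeq2 gave 1599 and 1199. Without genes over 2 times higher in H69 the counts were 506 and 618, and without polysomal replicate 2 they were 77 and 104. Leaving out cytoplasmic replicate 1 gave 86 and 203, cytoplasmic replicate 2 gave 15 and 95, and polysomal replicate 1 gave 274 and 210.

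The same contrast in H69M sheIF6, which uses 4 other libraries of the line but shares the estimate of spread, called 442 genes higher (1.91%) and 521 lower (2.26%). Of the 498 genes higher in shNTC, 267 were also called there (53.6% of the shNTC set and 60.4% of the sheIF6 set), and 493 had the same sign. Of the 587 lower genes, 351 were also called (59.8% and 67.4%), and 584 had the same sign. In H69 shNTC 1531 genes were called higher (6.63%) and 1201 lower (5.2%). There 193 of the higher set (38.8% of it and 12.6% of the H69 set) and 357 of the lower set (60.8% and 29.7%) were also called. The sign was the same in 438 and 575. Over all 23100 genes, Spearman's correlation of the log2 differences of H69M shNTC was 0.604 with those of H69M sheIF6 and 0.457 with those of H69 shNTC. The share of all genes with the same sign is not given here, so the sign counts have no background.

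Among protein-coding genes, 8 messages stayed higher in polysomal RNA with the block and in each of the 4 fits that left out 1 library (0.0346% of the genes tested). DYNC1H1, the heavy chain of the dynein motor, stood at 702 and 438 CPM in the cytoplasmic libraries and at 2898 and 1894 CPM in the polysomal ones. HTT, which encodes huntingtin, stood at 63.8 and 53.3 against 204 and 183 CPM. The spliceosome core protein gene PRPF8 stood at 86.7 and 88.6 against 251 and 335 CPM. In each of these 3 genes the lower polysomal library was more than 2 times the higher cytoplasmic one.

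The fitted log2 difference was 2.07 for DYNC1H1 (SE 0.287, adjusted p = 0.00455), 1.73 for HTT (SE 0.2, adjusted p = 0.0026) and 1.74 for PRPF8 (SE 0.246, adjusted p = 0.00464). SPTAN1, the nonerythroid alpha-spectrin gene, rose from 374 and 351 to 1013 and 1228 CPM, a log2 difference of 1.63 (adjusted p = 0.00283). NUP188, a scaffold of the nuclear pore, rose from 142 and 130 to 356 and 375 CPM, a difference of 1.43 (adjusted p = 0.00352). MADD, a regulator of Rab GTPases, and FOCAD, which encodes focadhesin, rose by 1.58 and 1.48. ST14, the membrane serine protease matriptase, was the remaining one, at 10.6 and 12.5 against 39.1 and 71 CPM. Its log2 difference was 2.25 (SE 0.297, adjusted p = 0.00407), and it is the only one of the 8 that was over 2 times higher in H69.

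These 8 genes share a long coding sequence. Length was not a criterion of the choice, but it may enter through the counts on which the tests rest, and this was not tested. The coding sequence ran from 2565 bases in ST14 to 13938 in DYNC1H1, with a median of 6204 bases against 1419 over the annotated protein-coding genes tested. On GRCh38, DYNC1H1 lies on chromosome 14 (101964510 to 102056443, plus strand), HTT on chromosome 4 (3041422 to 3243960, plus strand), PRPF8 on chromosome 17 (1650629 to 1684882, minus strand) and SPTAN1 on chromosome 9 (128552558 to 128633662, plus strand). In H69M sheIF6 all 8 were called higher too. In H69 shNTC 1 of the 8 was called, ST14 at 1.22 (adjusted p = 0.0159), and DYNC1H1 and PRPF8 stood at -0.16 and -0.38.

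**Figure D2:**
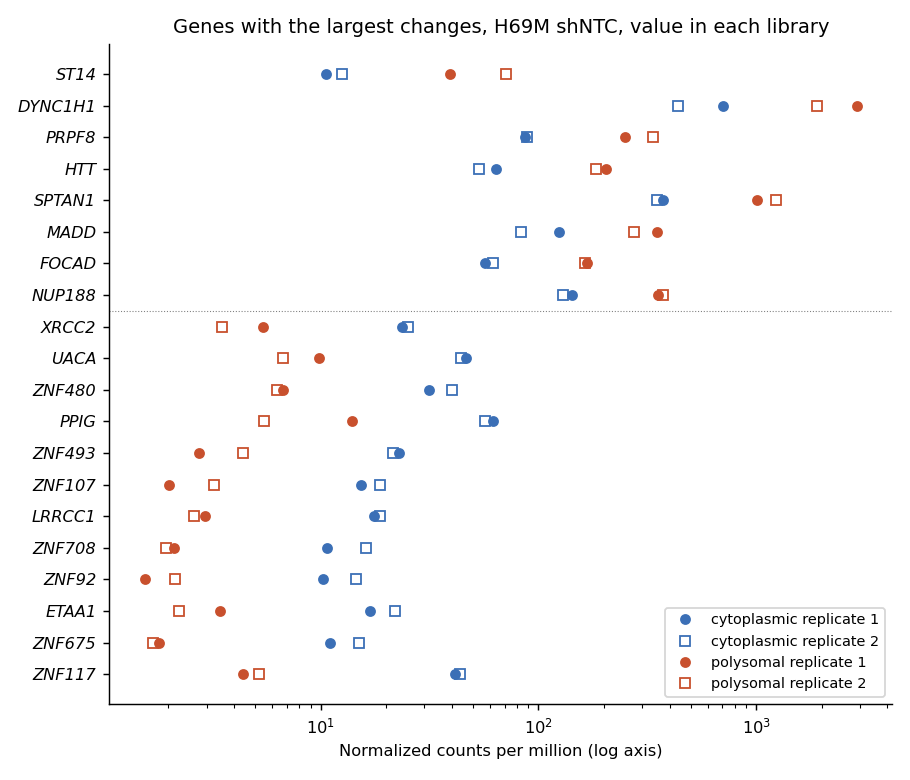
Normalized CPM (x axis, log scale) in each of the 4 H69M shNTC libraries for 8 messages higher and 12 lower in polysomal RNA (y axis). They have the largest differences among messages called also with the block and without each library in turn, with a mean count of at least 100. Blue is cytoplasmic, orange polysomal, filled circles replicate 1 and open squares replicate 2. The choice of genes required that orange and blue symbols do not overlap. The higher set spans 10.6 CPM in ST14 to 2898 CPM in DYNC1H1.

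On the lower side 53 genes held in all of those fits (0.229% of the genes tested), 45 of them protein-coding and 14 with ZNF symbols. ZNF117 stood at 41.4 and 43.7 CPM in cytoplasmic RNA and at 4.42 and 5.21 CPM in polysomal RNA, a log2 difference of -3.14 (SE 0.366, adjusted p = 0.0026). ZNF480 stood at 31.6 and 40.3 against 6.71 and 6.32 CPM, a difference of -2.46 (SE 0.241, adjusted p = 0.0026). Both encode C2H2 zinc finger proteins, the largest class of human transcription factors. Differences were -2.88 in ZNF675, -2.74 in ZNF92, -2.72 in ZNF708, -2.70 in ZNF107 and -2.62 in ZNF493. Zinc finger genes have close paralogs, and reads shared between near-identical copies could be split by the counting, so single values of this family are less certain.

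Most other genes of the lower set are protein-coding. ETAA1, an activator of the ATR kinase, stood at 16.8 and 21.9 CPM in cytoplasmic and at 3.46 and 2.24 CPM in polysomal RNA (log2 -2.76, SE 0.331, adjusted p = 0.0026). XRCC2, which acts in homologous recombination, stood at 23.7 and 25.3 against 5.43 and 3.53 CPM (log2 -2.45, adjusted p = 0.0026). LIG4, the ligase of nonhomologous end joining, stood at 35.7 and 38.6 against 8.58 and 8.66 CPM (log2 -2.11, adjusted p = 0.00573). In each of the 3, both polysomal values lay below both cytoplasmic ones. PPIG, a nuclear cyclophilin with an arginine-serine tail, stood at 62.1 and 56.9 against 13.9 and 5.51 CPM (log2 -2.62, adjusted p = 0.00573). PNN, which encodes the splicing-associated protein pinin, stood at 292 and 243 against 61 and 42.6 CPM (log2 -2.37, adjusted p = 0.0026). Differences were -2.70 in LRRCC1, a centriolar protein gene, and -2.46 in UACA. CCNI (cyclin I), UFM1 (a ubiquitin-like modifier) and NEMF (a ribosome quality control factor) fell by 2.07, 2.00 and 2.05. In H69M sheIF6 all 53 were called lower, and in H69 shNTC 49 were called lower.

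Coding sequences of the 2 sides differed at the third codon position, the position at which most synonymous codons differ. The share of G or C there (GC3) had a median of 69.3% in the 480 called-higher genes with an annotated coding sequence and of 37.1% in the 506 called-lower ones, against 60.7% over all. Stretches of 90 coding bases are printed for 3 genes of each side, with the last base of each codon in capitals. They were taken in frame around the middle of the longest coding exon from GENCODE v29 transcripts on GRCh38.
PRPF8: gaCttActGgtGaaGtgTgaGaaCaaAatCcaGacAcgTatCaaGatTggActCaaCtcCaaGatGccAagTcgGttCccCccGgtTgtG
SPTAN1: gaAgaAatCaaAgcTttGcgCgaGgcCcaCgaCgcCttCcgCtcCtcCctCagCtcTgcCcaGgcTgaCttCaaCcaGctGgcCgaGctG
HTT: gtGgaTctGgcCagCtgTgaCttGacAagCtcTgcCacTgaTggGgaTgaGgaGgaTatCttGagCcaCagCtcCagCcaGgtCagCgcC
ZNF117: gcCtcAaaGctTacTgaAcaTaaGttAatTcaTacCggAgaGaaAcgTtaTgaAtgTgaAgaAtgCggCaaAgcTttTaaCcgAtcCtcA
PPIG: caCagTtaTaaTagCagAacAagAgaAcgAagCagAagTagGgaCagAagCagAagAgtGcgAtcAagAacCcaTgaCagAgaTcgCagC
PNN: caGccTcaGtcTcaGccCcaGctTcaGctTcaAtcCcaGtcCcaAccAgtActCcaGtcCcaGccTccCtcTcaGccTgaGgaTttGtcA
Of the 30 capitals in each stretch, 20 are G or C in PRPF8 (chr17:1661983-1662072, minus strand), 24 in SPTAN1 (chr9:128626496-128626585, plus strand) and 22 in HTT (chr4:3127389-3127478, plus strand). The count is 9 in ZNF117 (chr7:64978785-64978874, minus strand), 11 in PPIG (chr2:169636924-169637013, plus strand) and 17 in PNN (chr14:39181138-39181227, plus strand). The PNN stretch is richer in G and C than its whole coding sequence, whose GC3 is 38.5%. The SPTAN1 and HTT stretches have a GC3 of 80% and 73.3%, against 64.3% and 59.1% in the whole coding sequences. All 3 printed genes of the higher side thus lie below the 69.3% median of the called-higher genes, and HTT lies below the 60.7% over all. Over whole coding sequences GC3 was 62.5% in DYNC1H1, 67.3% in PRPF8, 64.3% in SPTAN1 and 59.1% in HTT, and 29.2% in ZNF117, 29.9% in ETAA1 and 32.1% in PPIG. The 8 messages higher in every fit had a median GC3 of 61.2%, near the 60.7% over all, and FOCAD had 43.1%. Those 8 therefore do not show the high GC3 of the whole higher set. The 45 protein-coding genes lower in every fit had a median of 33.6%.

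Over the 15500 annotated protein-coding genes, the balance of higher and lower calls moved with GC3. Among the 3100 genes with the lowest GC3 (19.6% to 42.6%), 344 were called lower and 11 higher, with a median log2 difference of -0.44. Among the 3100 with the highest GC3 (76.6% to 100%), 10 were called lower and 120 higher, with a median of 0.42, which was 0.26 without polysomal replicate 2. With the block the lowest group had 602 lower and 37 higher calls and the highest group 23 and 365. Without cytoplasmic replicate 1, cytoplasmic replicate 2, polysomal replicate 1 or polysomal replicate 2, the lowest group had 126, 61, 150 and 53 lower calls and the highest group 28, 3, 91 and 21 higher calls. Spearman's correlation across genes between GC3 and the log2 difference was 0.403, and 0.318 and 0.461 in the pairs of libraries numbered 1 and 2. It was 0.319 in H69M sheIF6 and 0.338 in H69 shNTC. GC of the whole coding sequence gave nearly the same values, 0.401 in H69M shNTC, 0.325 in H69M sheIF6 and 0.343 in H69 shNTC. These correlations therefore do not single out the third position. Genes are not independent replicates, and those of a library share its depth and base composition, so these are descriptions. GC content also moved between libraries of one fraction: the correlation of GC3 with replicate 2 minus replicate 1 was 0.122 in polysomal and -0.0532 in cytoplasmic RNA. In H69M sheIF6 cytoplasmic RNA it was -0.471, and the part of such library differences in the GC3 order was not tested.

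Single codons lined up by their last base. Of the 30 codons ending in A or T, 29 had a negative correlation with the log2 difference across the 15500 genes, and of the 31 ending in G or C 29 had a positive one. The lysine codon AAA was the lowest (Spearman's correlation -0.379), followed by the arginine codon AGA (-0.324) and the glutamate codon GAA (-0.319). The leucine codon CTG (0.381), the alanine codon GCC (0.348) and the valine codon GTG (0.346) were the highest. The order held within amino acids that have 2 codons: among genes with at least 10 lysines, the share of AAG among lysine codons had a correlation of 0.444. The same measure ran from 0.368 to 0.415 in the other 8 such amino acids. UTR length was less related, with correlations of -0.0184 for the 5′ UTR and -0.0922 for the 3′ UTR.

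Longer coding sequences were more often enriched on polysomes in H69M. Among the 3100 longest (2556 bases and over) 249 were called higher and 96 lower, with a median log2 difference of 0.38. Among the 3100 shortest (72 to 783 bases) 11 were called higher and 171 lower, with a median of -0.21, which was -0.13 without cytoplasmic replicate 2 and -0.32 without polysomal replicate 2. The block gave 560 higher and 159 lower calls among the longest and 72 and 318 among the shortest. In the same order of libraries left out, the longest had 52, 10, 152 and 49 higher calls and the shortest 55, 21, 50 and 30 lower ones. The medians of the pairs numbered 1 and 2 were 0.27 and 0.33 for the longest and -0.17 and -0.19 for the shortest. H69M sheIF6 gave 0.53 and -0.43, and H69 shNTC gave -0.28 and 0.06. Spearman's correlation across genes between coding length and the log2 difference was 0.215 in H69M shNTC, 0.402 in H69M sheIF6 and -0.167 in H69 shNTC. Coding length also moved between libraries of one fraction. Its correlation with replicate 2 minus replicate 1 was -0.0425 in polysomal and -0.0674 in cytoplasmic RNA of H69M shNTC. In H69M sheIF6 cytoplasmic RNA it was 0.34, and in H69 shNTC polysomal RNA -0.209. The part of such library differences in the length order was not tested. The difference between the lines in the medians by length was not tested as such.

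**Figure D3:**
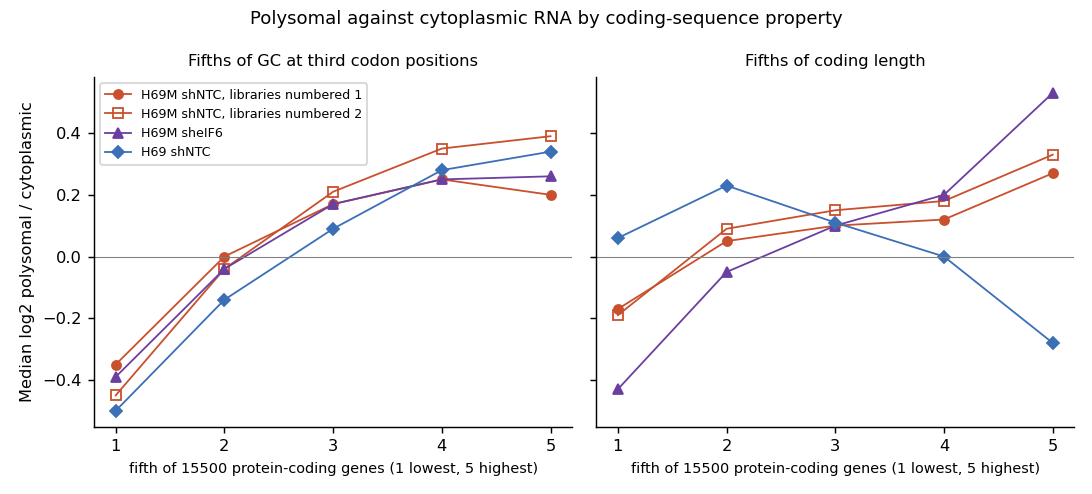
Median log2 ratio of polysomal to cytoplasmic RNA (y axis) in 5 equal groups of 15500 protein-coding genes (x axis, 1 lowest to 5 highest) by GC3 (left) and by coding length (right), for the 2 same-numbered library pairs of H69M shNTC, for H69M sheIF6 and for H69 shNTC. Each line is at its lowest in the group with the lowest GC3, while with coding length the H69M lines climb and the H69 line drops to -0.28 in the longest group.

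Genes were also divided by length and GC3 at once, into 3 by 3 groups. Among the longest genes with the highest GC3, 157 of 1450 (10.8%) were called higher and 1 lower, with a median log2 difference of 0.69. Among the longest genes with the lowest GC3, 36 of 2089 (1.72%) were called higher and 169 (8.09%) lower, with a median of -0.20. The shortest genes with the lowest GC3 had 2 higher and 142 of 1383 (10.3%) lower, with a median of -0.43. Short genes with the highest GC3 had 27 higher and 16 lower of 1915, with a median of 0.11 that was 0.00 without polysomal replicate 2. With the block the long genes with the highest GC3 had 366 higher calls and the short genes with the lowest GC3 had 260 lower ones. Leaving out cytoplasmic replicate 1, cytoplasmic replicate 2, polysomal replicate 1 or polysomal replicate 2 gave 33, 2, 105 and 17 of the former and 52, 23, 46 and 27 of the latter. Low GC3 thus went with calls on the lower side at every length, and length with calls on the higher side mainly outside the lowest GC3.

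**Figure D4:**
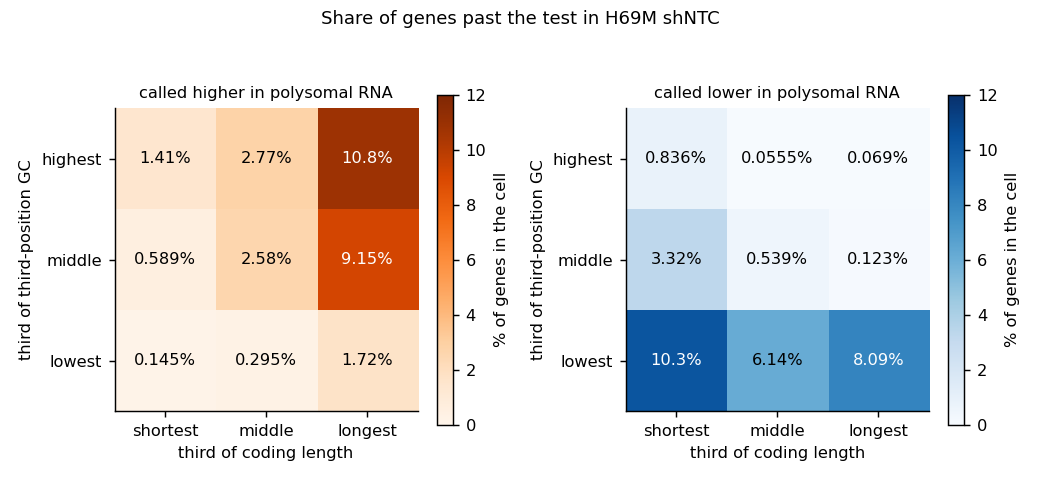
Percent of genes called higher (left) and lower (right) in polysomal RNA of H69M shNTC, in 9 groups of protein-coding genes by coding length (x axis) and GC3 (y axis). The share called higher reaches 10.8% in long genes with the highest GC3, and the share called lower reaches 10.3% in short genes with the lowest GC3.

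Zinc finger genes, a family noticed after the values were seen, were often on the lower side. Over all genes tested, 2.54% were called lower and 2.16% higher, or 5.02% and 6.08% with the block. These shares are the background for this and each later list. Among the 3100 genes with the lowest GC3, 344 were called lower and 11 higher. Of 477 tested genes with ZNF symbols, 73 were called lower and 4 higher (115 and 13 with the block), with a median log2 difference of -0.52 and a median GC3 of 42.4%. The pairs numbered 1 and 2 gave medians of -0.42 and -0.44. H69M sheIF6 called 58 lower and 8 higher (median -0.42), and H69 shNTC called 105 lower and 17 higher (median -0.67). Without cytoplasmic replicate 1, cytoplasmic replicate 2, polysomal replicate 1 or polysomal replicate 2, the lower calls were 30, 24, 46 and 15.

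Mitochondrial messages and nuclear-retained noncoding RNAs lay on the lower side, and mitochondrial ribosomal and transfer RNAs and small noncoding genes lay on both. Of all counts, mitochondrially encoded genes took 2.96% and 4.30% in the cytoplasmic libraries but 0.33% and 1.31% in the polysomal ones. All 13 mitochondrial messages had a negative log2 difference, with a median of -1.93, and 4 were called lower. That median was -1.20 without polysomal replicate 1 and -3.16 without polysomal replicate 2. MT-ND4, a complex I subunit, stood at 3991 and 5857 CPM in cytoplasmic and at 340 and 1123 CPM in polysomal RNA, a difference of -2.75 (SE 0.561, adjusted p = 0.0193). MT-ATP8, MT-ND2 and MT-ND4L fell by 2.72, 2.54 and 2.32. With the block 8 of the 13 were lower. The mitochondrial share of the polysomal counts was larger in replicate 2. Without that library 5 messages were called lower, against 1, 0 and 0 without cytoplasmic replicate 1, cytoplasmic replicate 2 or polysomal replicate 1. The 24 mitochondrial ribosomal and transfer RNAs had 10 above 0 and 2 called lower, with a median of -0.17 that was -0.30, 0.09, 0.50 and -1.54 in the same order, the last without polysomal replicate 2. The 151 annotated small noncoding genes had 60 above 0 and 3 called lower, with a median of -0.10 that ran from -0.55 to 0.00 when 1 library was left out.

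MALAT1, a long noncoding RNA of nuclear speckles, stood at 337 and 183 CPM in cytoplasmic RNA and at 38.4 and 17.6 CPM in polysomal RNA (log2 -3.21, SE 0.591, adjusted p = 0.0141). It lies on chromosome 11 (65497688 to 65506516, plus strand). MALAT1 was 1 of 13 nuclear-retained long noncoding RNAs called lower, and all 13 had a negative difference, with a median of -1.21. With the block 5 were called, among them NEAT1, the paraspeckle RNA, at -1.89, and MEG3 at -1.46. Without cytoplasmic replicate 1 or polysomal replicate 2 MALAT1 did not pass (adjusted p = 0.0661 and 0.0941). JPX, a noncoding RNA of the X-inactivation centre and 1 of the 53 genes above, fell by 2.30. RN7SL2 and RN7SL1, near-identical genes of the signal recognition particle RNA that cannot be counted apart with certainty, stood at 8.3 and 51.4 against 0.908 and 0.906 CPM and at 6.52 and 34.4 against 0.807 and 1.03 CPM. Their cytoplasmic values differed several-fold between replicates, and the polysomal values were lower than both.

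Transcripts that host small nucleolar RNAs in their introns, many of which are spliced and exported but code for little, were also on the lower side. All 20 tested had a negative difference, with a median of -0.89, and 3 were called lower, or 6 with the block. LRRC75A-AS1 stood at 186 and 179 against 67.9 and 71.1 CPM (log2 -1.39, SE 0.268, adjusted p = 0.0154). SNHG4 and TAF1D, both over 2 times higher in H69, fell by 2.82 and 1.05, and no host was called when any 1 library was left out. Among 12 cytoplasmic long noncoding RNAs 1 was called lower (3 with the block), NBDY at -1.37, a transcript now known to encode a small protein of P-bodies. Of 571 annotated long noncoding genes 11 (1.93%) were called lower and 2 (0.35%) higher, both below the shares over all genes, and 36 and 5 with the block. Their median was -0.47, and -0.29 without cytoplasmic replicate 1. The higher ones were MIR600HG, at 3.62 and 4.35 against 11.5 and 13 CPM (log2 1.62, adjusted p = 0.0128), and AC092171.4, at 34.7 and 38.1 against 69.2 and 81.8 CPM (log2 1.05, adjusted p = 0.0187). MIR600HG was over 2 times higher in H69. Neither passed without cytoplasmic replicate 1, cytoplasmic replicate 2 or polysomal replicate 2, with adjusted p of 0.0785, 0.0657 and 0.0617 for MIR600HG and 0.104, 0.0943 and 0.106 for AC092171.4. Strand was not given for the counting, so reads of overlapping genes could be part of these.

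Components of the translation machinery went in both directions. Cytosolic ribosomal protein messages begin with a 5′ oligopyrimidine tract through which mTOR signalling controls their translation. The 48 large-subunit genes had a median log2 difference of -0.35 and the 34 small-subunit genes one of -0.26, with 2 of each called lower and none higher. RPL39 stood at 141 and 144 CPM in cytoplasmic and at 38.6 and 59.7 CPM in polysomal RNA (log2 -1.54, adjusted p = 0.0431). RPS29 stood at 55.1 and 80.7 against 15 and 24 CPM (log2 -1.80, adjusted p = 0.0316). RPL37 and RPS12 fell by 1.24 and 1.65. The other members did not pass, and RPL3 for one stood at 0.96 (adjusted p = 0.0626, and 0.041 with the block). With the block 3 large-subunit genes were lower and 1 higher. Medians were -1.03 and -1.02 in H69M sheIF6 and 0.60 and 0.52 in H69 shNTC. Without cytoplasmic replicate 2 the small-subunit median was 0.00 and the large-subunit one -0.11, without polysomal replicate 1 they were -0.13 and -0.15, and without cytoplasmic replicate 1 or polysomal replicate 2 the small-subunit one was -0.43 or -0.41. Neither list had a call when any 1 library was left out. These families have many processed pseudogenes, with which reads may be shared.

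Of 47 translation factors 4 were called higher and 3 lower, or 7 and 4 with the block. EIF4G1, the scaffold of the cap-binding complex, stood at 663 and 702 against 1409 and 1715 CPM (log2 1.19, SE 0.231, adjusted p = 0.0154). EIF3B, a core subunit of eIF3, stood at 180 and 297 against 491 and 736 CPM (log2 1.36, adjusted p = 0.0284). EIF2B4 and EIF2B5, 2 subunits of the exchange factor of eIF2, rose by 1.03 and 0.98. EIF5B, the GTPase of subunit joining, stood at 108 and 134 against 48.4 and 29.8 CPM (log2 -1.63, adjusted p = 0.0107). PABPC1, the cytoplasmic poly(A)-binding protein, fell by 1.07, and EIF3J fell by 0.81. EIF6, the target of the other shRNA of the study, did not pass, at 204 and 165 against 323 and 202 CPM (log2 0.51, adjusted p = 0.362). Leaving out polysomal replicate 1 gave 2 higher calls and 1 lower, leaving out cytoplasmic replicate 1 gave 0 and 1, and cytoplasmic replicate 2 or polysomal replicate 2 gave none.

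Nucleolar ribosome biogenesis genes were on the higher side, with 7 of 47 called higher, none lower and a median of 0.40, which was 0.24 without polysomal replicate 1. NOC2L, a pre-60S assembly factor, stood at 101 and 105 against 215 and 263 CPM (log2 1.22, SE 0.227, adjusted p = 0.0138). RRP12, which acts in pre-ribosome export, stood at 33.9 and 32.7 against 71.5 and 80.9 CPM (log2 1.20, adjusted p = 0.0152). BOP1 and PES1, partners in the PeBoW complex of large-subunit assembly, rose by 1.26 and 1.13, and RRP1, NOL6 and POLR1A rose by 1.08, 1.02 and 0.85. BOP1 was over 2 times higher in H69. The higher calls numbered 3 without polysomal replicate 1, 1 without polysomal replicate 2 and 0 without cytoplasmic replicate 1 or 2. H69M sheIF6 called 4 higher and 1 lower, and H69 shNTC 15 higher and 1 lower.

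**Figure D5:**
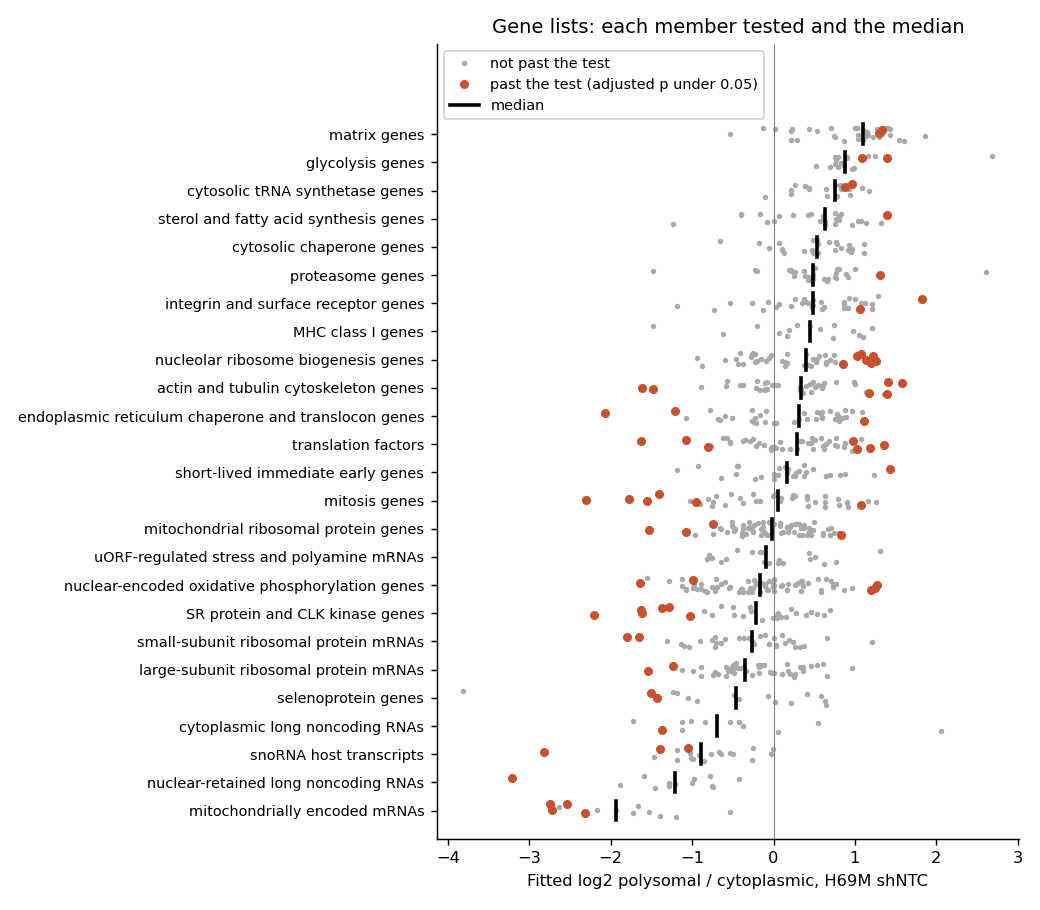
Fitted log2 difference of polysomal minus cytoplasmic RNA in H69M shNTC (x axis) for every tested member of the gene lists (y axis, ordered by median), leaving out cell type markers, zinc finger genes, histones, small structured noncoding RNAs and mitochondrial ribosomal and transfer RNAs. Orange points passed the test, grey points did not, and black bars are list medians. Among the lists drawn, mitochondrial messages lie lowest, with a median of -1.93, and matrix genes highest, with a median of 1.10. Of the lists not drawn, small structured noncoding RNAs (11 tested, median -2.30) and neuroendocrine markers (median 2.09) lie outside that range.

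Extracellular matrix genes had a median of 1.10, with 37 of 39 above 0. Their median coding length was 4497 bases, against 1419 over all genes tested with a coding sequence. LAMB2, a laminin chain, stood at 114 and 134 CPM in cytoplasmic and at 253 and 367 CPM in polysomal RNA (log2 1.33, SE 0.288, adjusted p = 0.0239). AGRN, a basement membrane proteoglycan, stood at 256 and 321 against 525 and 888 CPM (log2 1.29, adjusted p = 0.0141). These 2 were the only members called without the block, and 18 were called higher with it. FBN1 and FBN2, which encode fibrillins, stood at 1.43 and 1.60 (adjusted p = 0.0797 and 0.056 without and 0.00559 and 0.00485 with the block). COL1A1 and COL1A2, the chains of type I collagen, were at 6274 and 9404 against 9439 and 18955 CPM and at 3736 and 7082 against 7425 and 17722 CPM. Polysomal replicate 2 was highest in both. Neither passed without the block, and with it COL1A2 did (adjusted p = 0.0257). In H69 cytoplasmic RNA LAMB2, COL1A1, FBN1 and FBN2 stood at only 3.02, 1.9, 1.04 and 4.53 CPM, and AGRN and COL1A2 at 25.9 and 314 CPM. The H69 median of the list therefore rests in part on low counts. The list's median was 1.15 in H69M sheIF6, -0.39 in H69 shNTC and 0.65 without polysomal replicate 2, and 3 members were called without polysomal replicate 1 but none without any other library.

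Surface receptors and cytoskeletal genes had calls mainly on the higher side, where 2.16% of all genes were called higher and 2.54% lower. LRP1, an endocytic receptor, stood at 328 and 345 against 1002 and 1381 CPM (log2 1.82, SE 0.382, adjusted p = 0.0211). ITGA3, an integrin chain that binds laminins, rose by 1.06, and these were the 2 of 33 receptor genes called, or 6 with the block. FLNA, the actin crosslinker filamin A, stood at 3222 and 3190 against 7130 and 9618 CPM (log2 1.39, SE 0.274, adjusted p = 0.017). TLN1 (talin) and MYH9 (nonmuscle myosin heavy chain) rose by 1.41 and 1.17. The thymosins TMSB4X and TMSB10, small actin monomer-binding proteins, stood at 949 and 1650 against 289 and 558 CPM and at 543 and 717 against 179 and 272 CPM. They fell by 1.62 and 1.48 (adjusted p = 0.0405 and 0.0363). Of 41 actin and tubulin genes 4 were thus called higher and 2 lower, or 6 and 3 with the block. The list's median was 0.34, -0.03 without cytoplasmic replicate 1, 0.69 without cytoplasmic replicate 2, 0.61 without polysomal replicate 1 and 0.01 without polysomal replicate 2. The higher calls of that list numbered 4 without polysomal replicate 1, 1 without cytoplasmic replicate 1 or polysomal replicate 2, and 0 without cytoplasmic replicate 2. The receptor list had 2 calls without polysomal replicate 1 and 0 without any other library.

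All 18 glycolysis genes had a positive difference, with a median of 0.88, and 2 were called higher, or 11 with the block. GPI, the isomerase of the second step, stood at 281 and 275 against 890 and 569 CPM (log2 1.39, adjusted p = 0.0189). HK1, a hexokinase, stood at 77.5 and 58.3 against 150 and 140 CPM (log2 1.09, adjusted p = 0.0396). GAPDH did not pass, at 0.69 (adjusted p = 0.292). Without polysomal replicate 2 the list had 1 call, and without any other library 0. Nuclear-encoded oxidative phosphorylation genes had 3 of 76 called higher and 2 lower, or 5 and 9 with the block. The catalytic subunits ATP5B and SDHA rose by 1.25 and 1.20, and ATP5E and NDUFA5 fell by 1.64 and 0.99. The median of that list was -0.16, 0.01 without cytoplasmic replicate 2, 0.00 without polysomal replicate 1, -0.29 without cytoplasmic replicate 1 and -0.33 without polysomal replicate 2, so its sign rests on single libraries. It had 1 lower call without cytoplasmic replicate 1 and none without any other library. ACACA, the acetyl-CoA carboxylase of fatty acid synthesis, was over 2 times higher in H69. It was called among 27 sterol and fatty acid synthesis genes, at 30.2 and 33.9 against 80.1 and 87.9 CPM (log2 1.39, adjusted p = 0.0104). With the block 5 of that list were higher and 1 lower, and it had 2 calls without polysomal replicate 1 and 0 without any other library.

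Among protein quality control genes, chaperones of the cytosol had none of 26 called, or 5 higher with the block. Their median was 0.54, and 0.34 to 0.81 when 1 library was left out. PSMD2, a regulatory subunit of the proteasome, was 1 of 34 called, at 374 and 422 against 857 and 1115 CPM (log2 1.31, adjusted p = 0.0193), with 5 higher and 1 lower under the block. In the endoplasmic reticulum list CRELD2 rose by 1.11, and OST4 and SEC62, a small subunit of oligosaccharyltransferase and a translocon component, fell by 2.07 and 1.21, and the block gave 9 higher and 4 lower of 39. QARS and HARS, the glutaminyl- and histidyl-tRNA synthetases, rose by 0.97 and 0.88 among 20 cytosolic synthetases, of which 4 rose with the block. Their median of 0.76 was -0.03 without polysomal replicate 1 and 0.19 without cytoplasmic replicate 2. Of 75 mitochondrial ribosomal protein genes 1 was called higher, MRPL16, and 3 lower, MRPL33, MRPL42 and MRPS16, or 4 and 5 with the block. Their median was -0.02 with TMM and 0.04 with RLE scaling, and it was -0.07 to 0.13 when 1 library was left out. In each of these lists, leaving out 1 library gave at most 1 call, except 2 in the endoplasmic reticulum list without cytoplasmic replicate 1.

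SR proteins, related splicing factors and CLK kinases had 6 of 28 called lower and none higher, with a median of -0.21. PNISR stood at 165 and 136 CPM in cytoplasmic and at 42.3 and 22.7 CPM in polysomal RNA (log2 -2.21, SE 0.283, adjusted p = 0.00359). LUC7L3, a U1-associated factor, stood at 340 and 279 against 130 and 73 CPM (log2 -1.61, adjusted p = 0.00703). RBM25, NKTR, ARGLU1 and SRSF10 fell by 1.63, 1.37, 1.28 and 1.03. The lower calls were 2, 2, 4 and 1 without cytoplasmic replicate 1, cytoplasmic replicate 2, polysomal replicate 1 and polysomal replicate 2.

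Mitosis genes were divided, with 5 of 40 called lower and 1 higher, or 8 and 5 with the block. CENPE, a kinetochore motor, stood at 29.8 and 51.1 against 8.1 and 8.28 CPM (log2 -2.30, SE 0.359, adjusted p = 0.0064). KIF18A, ASPM, HMMR and CENPF fell by 1.77, 1.55, 1.41 and 0.95, and KIF2C, a microtubule depolymerase, rose by 1.07. The coding sequences of CENPE and ASPM are long, with a GC3 of 31.7% and 31.3%. The median of the list was 0.05, -0.20 when libraries were scaled by total size, -0.13 without cytoplasmic replicate 1, 0.29 without cytoplasmic replicate 2, 0.36 without polysomal replicate 1 and -0.31 without polysomal replicate 2. The lower calls numbered 4 without cytoplasmic replicate 1, 0 without cytoplasmic replicate 2 and 1 without either polysomal library. Among 16 selenoprotein genes, SEP15 and SELT fell by 1.50 and 1.43, and 4 were lower with the block. ID2, an inhibitor of basic helix-loop-helix factors that was over 2 times higher in H69, was the 1 of 32 immediate early genes called, at 1.43, and with the block 2 were called.

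None of 20 messages with regulatory upstream reading frames passed, and with the block 2 were lower, AMD1 among them (log2 -0.64, adjusted p = 0.0426). ATF4, the stress-response factor, stood at 422 and 161 against 688 and 143 CPM, with replicates further apart than fractions. Replication-dependent histone messages, which lack a poly(A) tail, and the 15 class I antigen presentation genes had no member called either, and with the block HIST1H1C was higher (log2 0.90, adjusted p = 0.0422) and 1 class I gene lower. At an unadjusted p under 0.05, 2450 of all genes were higher and 2250 lower.

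The fraction difference of H69M was set against that of H69 by an interaction term in the same fit. No gene passed in edgeR (0.0%), with 1165 higher and 962 lower at an unadjusted p under 0.05. limma-voom called none, and DESeq2 called 147 higher (0.949%) and 47 lower (0.303%) of 15486. With the replicate block 7 genes were higher (0.0303%) and 2 lower (0.00866%). Among the 7, FBN1 and FBN2 had log2 differences of 1.42 and 1.59 in H69M with the block, beside -3.00 and -1.11 in H69 without it. FBN1 stood at only 1.04 CPM in H69 cytoplasmic RNA. Their interaction was 4.40 and 2.67 (adjusted p with the block = 0.0155 and 0.0374). PRPF8 and TRRAP, a very large scaffold of acetyltransferase complexes, had interactions of 2.12 and 2.19 (adjusted p with the block = 0.0331 and 0.0326), with -0.38 and -0.67 in H69. The other 3, CADPS, FABP7 and SCGN, are higher in H69 and stood highest in polysomal replicate 2, at 6.87, 13.5 and 22.7 CPM, and the part of that library in these calls was not tested. Of the 2 lower genes TCEAL4 is annotated as protein-coding, at 103 and 94.2 against 54.9 and 48.8 CPM in H69M (log2 -0.92) and with a difference of 1.21 in H69. The other, RP5-1189D6.2, had 2.3 and 1.45 CPM in cytoplasmic RNA and no counts in either polysomal library. These 9 genes were named after their values were seen.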

How the data were processed

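The data are whole-number counts per gene name that the authors deposited for 16 libraries. Per the submitters' processing notes STAR, HTSeq and GRCh38 were used, and the strand setting is not given in the sources used here. Of 56832 names, 23100 passed edgeR's expression filter (minimum count 10). All 8 groups were fitted together with edgeR 4.0.16 (TMM scaling, robust quasi-likelihood test, Benjamini-Hochberg adjustment over all 23100 genes, limit 0.05), and CPM are TMM-scaled. Log2 differences are fitted, polysomal minus cytoplasmic. Values of single pairs use an offset of 0.5 CPM. The code of the fit was run on simulated counts with independent replicates. Same-numbered H69M libraries deviate together here, so that run does not give the error rate of the fit on these data. Positions, biotypes and coding sequences come from GENCODE v29, matched by name. GC3, codon and ZNF summaries were chosen after seeing the data, and the comparison and gene lists were chosen with earlier results of these data known. Named by rule were up to 12 genes in each direction with the largest differences among those past the limit also with the block and without each library in turn (mean count at least 100, no overlap, no clone, antisense or pseudogene names), up to 6 noncoding RNAs in each direction past the limit with the block, up to 4 members of each list and 7 genes that check the line. Others were picked after their values were seen. The labels do not state that replicate numbers pair libraries. Deviations of same-numbered libraries correlated at 0.172 to 0.578 within H69M, so the fit with the number as a block within each line is given beside the counts it moves by over 1.5 times and the named genes whose call it changes. Alternatives were RLE or total-size scaling, other filters, DESeq2 1.42.0, limma-voom (limma 3.58.1), fewer libraries, no mitochondrial and ribosomal RNA genes, and a fold threshold. Some values are not reported here.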

Additional observations from a re-analysis of the deposited data

How the results depend on the processing

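The H69M shNTC counts of 498 higher and 587 lower genes moved to 225 and 1074 with total library sizes, to 1599 and 1199 with DESeq2 and to 1405 and 1159 under the replicate block. With the H69M libraries alone or the 4 libraries alone edgeR called 0 and 0 (1747 and 1985, or 1455 and 1742, at an unadjusted p under 0.05), and the H69M libraries alone with the replicate block gave 81 and 187. The fold threshold of 1 on the log2 scale left 0 and 10 (347 and 673 unadjusted). Leaving out 1 library gave 15 to 274 higher and 95 to 210 lower genes. The other alternatives stayed within 1.5 times. For H69M sheIF6 (442 and 521) total sizes gave 268 and 832, no low-count filter 287 higher, DESeq2 1309 and 1142, the H69M libraries alone 0 and 1, the replicate block 1074 and 1087, and both together 160 and 174. For the difference from H69, none in the reported fit, DESeq2 gave 147 and 47, the replicate block 7 and 2, no filter 1 lower gene, and leaving out a library 0 higher and 0 to 2 lower. Fewer libraries leave fewer residual degrees of freedom. The cause of the other moves was not tested. None of the results recomputed reversed its direction while called. With 2 libraries a group, the precision is limited by their spread rather than by depth, which was 36005326 counts or more.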

Other observations

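Mitochondrial RNAs other than messages were counted too. MT-TL1, a mitochondrial transfer RNA, stood at 36.1 and 29.6 CPM in cytoplasmic and at 3.08 and 6.75 CPM in polysomal RNA (log2 -2.74, adjusted p = 0.00992 in edgeR's quasi-likelihood test), and MT-RNR2, the large ribosomal RNA, stood at 2211 and 5091 against 219 and 889 CPM (log2 -2.72). Of 625 pseudogenes, 8 (1.28%) were called lower and 1 (0.16%) higher, below the 2.54% and 2.16% over all genes, and their median was -0.34, or -0.18 without cytoplasmic replicate 1. The 6102 tested names without an annotation match had 49 (0.803%) lower and 13 (0.213%) higher calls, also below those shares, and a median of -0.37, or -0.19 without cytoplasmic replicate 1. With the replicate block the lower and higher calls were 24 and 4 among pseudogenes and 132 and 29 among unmatched names.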
